A study of Mus musculus with 13 samples.

Results

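The clustered protocadherins are cell-surface adhesion proteins encoded by the alpha, beta and gamma gene clusters (Pcdha, Pcdhb and Pcdhg), which lie next to each other on mouse chromosome 18. Their 5-hydroxymethylcytosine (5hmC), the oxidised form of 5-methylcytosine made by TET enzymes, was described in knee cartilage. Members were the regions whose nearest gene in the deposited tables is an alpha, beta or gamma cluster gene. There were 54 such regions among 181833 in 3 tables: 10 of 43378 in WT DMM against WT sham, 23 of 65969 in MUT DMM against WT DMM, and 21 of 72486 in MUT DMM against WT sham. The alpha cluster gave 19 of them, the beta cluster 23 and the gamma cluster 12.

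All libraries came from knee cartilage of male B6;129S4 mice, 6 weeks after surgery. WT mice were labelled TET1+/+ and MUT mice TET-/-. DMM, destabilisation of the medial meniscus, makes the knee unstable and leads to osteoarthritis. The protocol says that this meniscus was taken out in DMM knees, that sham joints were only opened, and that controls lay on the contralateral leg. The design text instead calls the controls age-matched sham, so whether both knees of a mouse were used is not known. The mice were 3 to 4 months old by the design text and 4 to 6 months by the protocol. The groups used were WT sham, WT DMM and MUT DMM, with 3 entries each in the tables. The MUT sham group and the background control made without the glucosyltransferase were not analysed here, so no background was subtracted, and the genotype effect without DMM was not tested. The sources used here do not give the part of the gene that was removed or the cells that lack it. The assay kept DNA fragments that carry 5hmC at CCGG sites, and a level is the deposited normalized read count of a region, comparable within a table only.

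In the alpha and gamma clusters each variable exon has its own promoter and is spliced to constant exons shared by the whole cluster, while each beta gene is a single exon. A neuron uses few of these promoters, which gives neurons different surface identities. Choice among them is known to involve CTCF and cohesin, which loop promoters to distant enhancers, and DNA methylation of the promoters. By RefSeq on GRCm38.p6, whose coordinates are those of mm10, the alpha cluster ran on chromosome 18 from 36930285 to 37188897 with 14 genes. The beta cluster ran from 37264998 to 37521419 and the gamma cluster from 37661775 to 37841873, with 22 genes each.

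Gene names say little about which variable exon a region touches. All 19 alpha regions were named Pcdha2 and all 12 gamma regions Pcdhga9 in the deposited tables, also where the region lay before the start of that gene, as 7 of the 12 gamma regions did. The names covered 13 of the 58 genes, and 45 were never named. Regions are therefore placed here by the gene start nearest to their centre, which gave 27 different genes, 8 alpha, 11 beta and 8 gamma. RefSeq also lists the read-through models Gm37013, Gm38666 and Gm38667, which run from the alpha into the gamma cluster and overlap most members. Beta genes are close copies of each other, so reads could be split between them, and the sources used here do not say what was done with reads that match in several places.

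Depth differed widely between libraries. Over all listed regions of a table, the WT sham libraries held 563233 to 7860851 reads, while the first-listed WT DMM library held 4726 in WT DMM against WT sham and 52972 in MUT DMM against WT DMM. That near-empty library had no read in any of the 10 members of the first table and in 17 of the 23 of the second. Its 0 allows a level of up to 47.0 normalized counts in the former and 28.7 in the latter (3 reads, counting error only). For MUT DMM, 2 of the 3 entries were the same in 100% of regions and were counted as 1 library, which leaves 2 distinct libraries, a deeper and a shallower one. In MUT DMM against WT sham 1 read of the shallower library was worth 9.45 normalized counts and 1 read of the deeper 0.736. In MUT DMM against WT DMM 1 read of the shallower was worth 3.55, and its 0 allows up to 10.7 normalized counts.

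All 54 members had an authors' adjusted p under 0.05, as did 99.7%, 98.9% and 99.3% of all regions in the 3 tables, because the tables list only regions with a difference. What the members add is therefore direction, level and place.

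**Figure D1:**
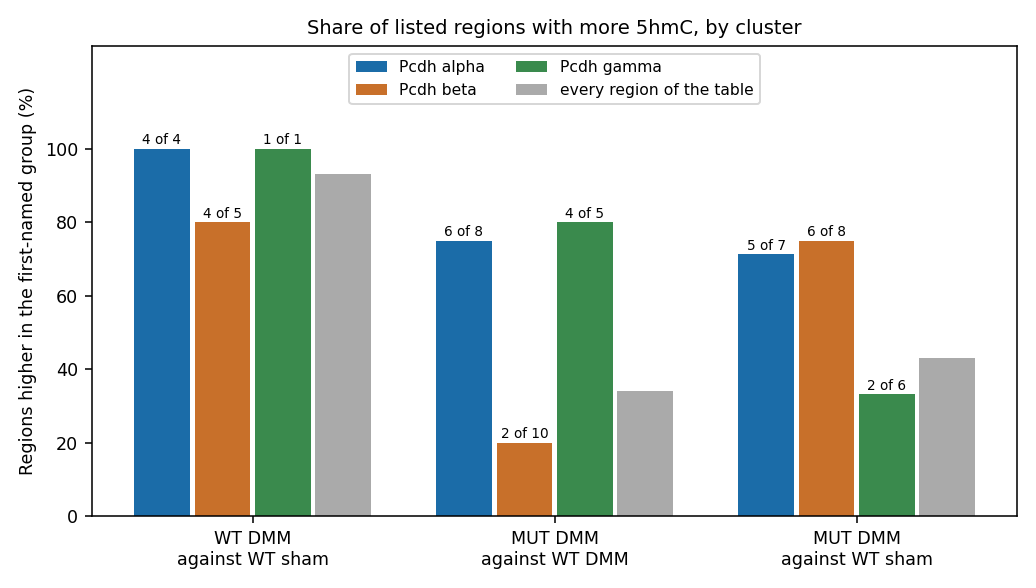
Bars give the percentage of regions that were higher in the first-named group, for the alpha, beta and gamma regions (counts above the bars). Grey bars give the percentage of all regions of the table that were higher with an adjusted p under 0.05. In MUT DMM against WT DMM 6 of 8 alpha, 2 of 10 beta and 4 of 5 gamma regions were higher, beside 34.2% of the whole table.

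In wild-type cartilage after DMM, 9 of the 10 protocadherin regions had more 5hmC than in sham: 4 of 4 alpha, 4 of 5 beta and 1 of 1 gamma. Among all regions of this comparison 93.2% were called higher and 6.53% lower, so the members' share is near the background. The 9 higher regions were weakly marked, with sham means of 2.05 to 6.34 and WT DMM means of 6.10 to 12.8 normalized counts. Their median fold was 2.95, and that of all higher regions 2.67. For the same 9 members the median fold was 1.25 without the third-listed WT DMM library and 4.43 without the near-empty one. In this table every region with a sham mean of at most 4.24 normalized counts was higher, which was the range of 8 of the 10 members.

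The smallest adjusted p belonged to a region on chromosome 18 from 37305561 to 37305840, 1754 bases before the start of Pcdhb4 (0.000264 in the authors' deposited table). Its WT DMM libraries stood at 0, 6.67 and 21.9 normalized counts (0, 5 and 21 reads), and its sham libraries at 2.56, 2.86 and 2.56. Both readable WT DMM libraries were above sham, and the near-empty one was at 0. The mean was 9.51 ± 11.2 (SD, n = 3) after DMM and 2.66 ± 0.173 (n = 3) in sham, a difference smaller than the spread between WT DMM libraries.

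At the gamma region from 37714701 to 37714980, centred 6 bases after the start of Pcdhga7, WT DMM stood at 0, 5.34 and 18.7 and sham at 2.24, 3.58 and 2.22 normalized counts. Both readable WT DMM libraries lay above all sham libraries. Without the third-listed one, which leaves 5.34 and the 0 of the near-empty library, the means were 2.67 and 2.68. The alpha region of smallest adjusted p, from 36964281 to 36964660 between the starts of Pcdha5 and Pcdha6, had 0, 5.34 and 31.2 after DMM against 6.09, 2.15 and 3.25 in sham. Only the third-listed WT DMM library was above all sham libraries, and when it was dropped the means turned to 2.67 against 3.83.

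From 37049601 to 37049820, inside Pcdha12 and 29480 bases after its start, WT DMM stood at 0, 6.67 and 15.6 normalized counts and sham at 3.52, 2.15 and 1.88. The region from 37059701 to 37059960, also inside Pcdha12 and farther from its start, was the alpha region of highest level. WT DMM stood at 0, 18.7 and 19.8 normalized counts and sham at 8.01, 5.72 and 5.30, so both readable DMM libraries lay above all sham libraries. Inside beta genes, the region of Pcdhb6 from 37334401 to 37334660 had 0, 9.34 and 9.37 after DMM and 2.24, 3.58 and 1.54 in sham. The remaining higher regions lay near Pcdha7 and, as a pair, in and behind Pcdhb8.

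The single lower region was also the strongest marked one, between the beta and gamma clusters from 37543821 to 37544120, behind Pcdhb22. Sham stood at 120, 109 and 127 normalized counts (375, 153 and 746 reads), and WT DMM at 0, 157 and 75.0 (0, 118 and 72 reads). The readable WT DMM libraries lay on either side of sham. The mean was 77.5 ± 78.7 (n = 3) against 119 ± 9.07 (n = 3), and without the near-empty library 116 against 119.

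No member separated all 3 WT DMM from all 3 sham libraries, where 0.994% of regions did so as higher and 1.71% as lower. Without the near-empty library 7 members separated, all higher (2 alpha, 4 beta, 1 gamma), beside 79.5% of all regions as higher and 2.02% as lower. Limma with Benjamini-Hochberg adjustment over the table called 0 of the 10 members (1 at unadjusted p under 0.05) and 7 regions in the whole table, all lower (0.0161%). Without the near-empty library it called 7 members, all higher, and among all regions 75.9% as higher and 1.87% as lower. When the third-listed WT DMM library was dropped instead, 5 of the 10 members were higher and 5 lower. The share of all regions that turned without it was not computed, so this split has no background to be read against.

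**Figure D2:**
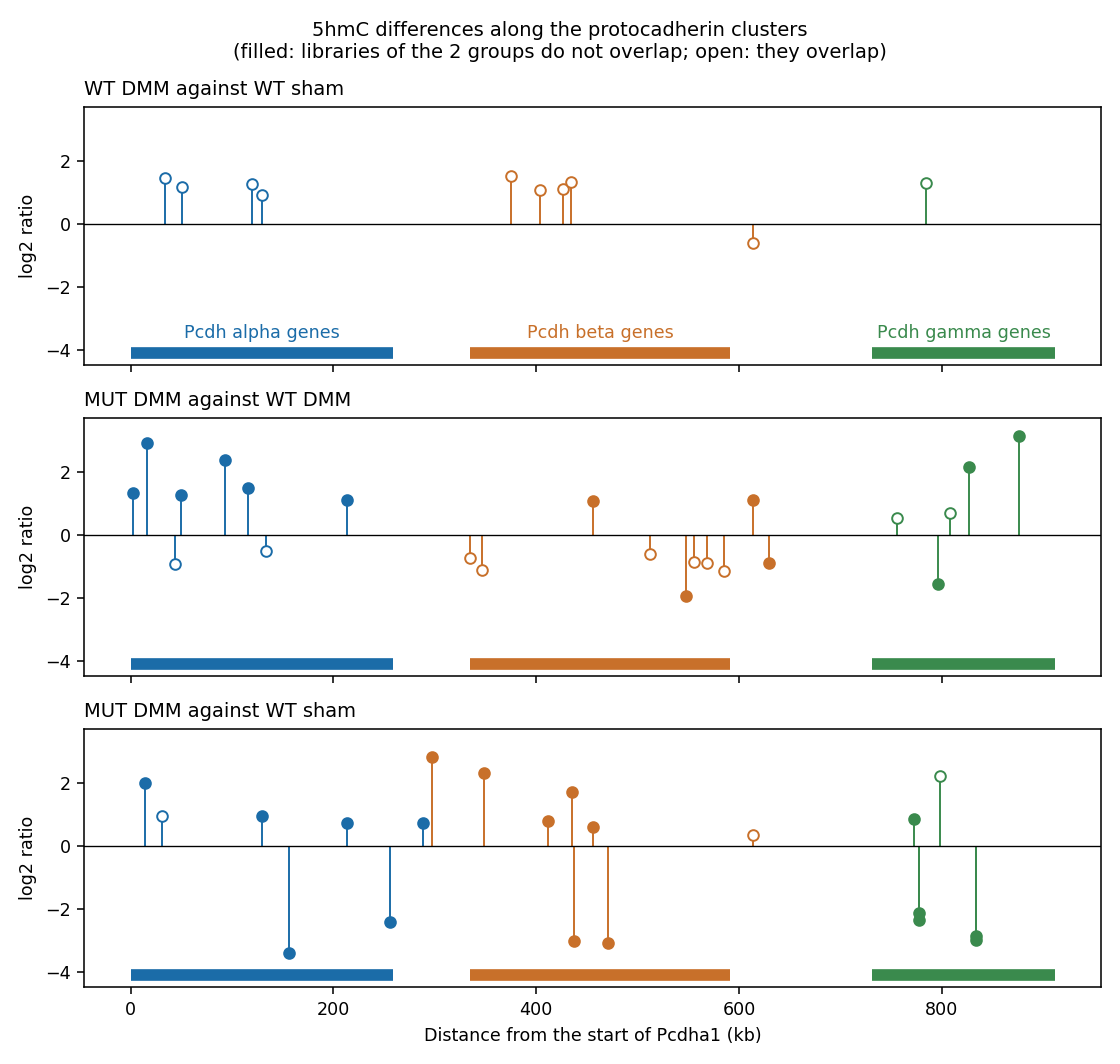
Each stem is a protocadherin region, placed by its distance in kb from the start of Pcdha1, and its height is the log2 ratio of the group means with 1 normalized count added to each. Filled points mark regions whose libraries do not overlap between groups, none of them in the top panel, and the bars mark the gene clusters. In the middle panel the alpha regions point mostly up and the beta regions mostly down.

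Between mutant and wild-type cartilage after DMM the counts of higher and lower listed regions differed between clusters, with most lower beta regions weakly marked. Of the 23 regions 12 were higher and 11 lower in MUT DMM, where 34.2% of all regions were called higher and 64.7% lower. In the alpha cluster 6 were higher and 2 lower, in the gamma cluster 4 and 1, and in the beta cluster 2 and 8. The difference between clusters was not tested, because regions of a cluster are neighbours read in the same libraries. The shallower mutant library had 0 to 4 reads in the lower members and 4 to 28 in the higher ones. With a mean over both groups of at least 10 normalized counts, 11 higher and 2 lower members remained. The share of all regions higher or lower at that level was not computed. These lower members lay before Pcdhb13 and in Pcdhga8, so too few beta regions were left to compare their directions. The groups did not overlap in 10 higher and 3 lower members, beside 22.9% and 18.5% of all regions. The difference of means was larger than the SD of both groups in 9 higher and 3 lower members. The share of all regions of which this holds was not computed, so the count has no background to be read against.

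Direction in this table went with level. With regions ordered by WT DMM mean and cut into 4 equal bins, 15.5% of all regions were higher in the lowest bin, up to 5.22 normalized counts, and 18.1% in the next, up to 10.2. From 10.2 to 19.4 the share was 55.1%, and above it 52.1%. Of the 12 members with a WT DMM mean up to 10.2, 3 alpha and 1 gamma regions were higher, while 2 alpha and 6 beta regions were lower. Above 10.2, 3 alpha, 2 beta and 3 gamma regions were higher, and 2 beta and 1 gamma regions were lower. The part of level in the differences between clusters was not tested.

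In the alpha cluster the smallest adjusted p (1.97e-05, authors' deposited table) lay at the region from 37023001 to 37023520, centred 3030 bases after the start of Pcdha12, the last of the ordinary alpha exons. MUT DMM stood at 37.9 and 46.2 normalized counts (162 and 13 reads) and WT DMM at 0, 11.3 and 11.0 (0, 15 and 18 reads). Both mutant libraries were above every wild-type library, with means of 42.1 ± 5.88 (n = 2) and 7.41 ± 6.42 (n = 3), 5.67-fold higher. The wild-type mean counts the 0 of the near-empty library, and without that library it was 11.1.

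The region from 36932341 to 36932560, 2166 bases into Pcdha1, was the next by adjusted p. It had 38.8 and 42.7 normalized counts in MUT DMM and 0, 31.6 and 15.8 in WT DMM. The groups did not overlap, although the second-listed WT DMM library came near the mutant ones. At the start of Pcdha3, from 36946021 to 36946300, MUT DMM stood at 11.7 and 39.1 and WT DMM at 0, 1.5 and 6.09, so the groups did not overlap.

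Pcdhac2, a C-type alpha gene whose promoter is used more constantly than those of the other alpha exons, had a region 252 bases after its start, from 37143821 to 37144040. MUT DMM stood at 27.8 and 24.9 normalized counts and WT DMM at 0, 23.3 and 12.2. The second-listed WT DMM library lay just under the mutant pair. The mean was 11.8 ± 11.7 (n = 3) in WT DMM and 26.4 ± 2.09 (n = 2) in MUT DMM. Without the near-empty library the WT DMM mean was 17.75. The alpha region of highest level in this comparison, behind the Pcdha7 start from 36980221 to 36980480, had 24.3 and 56.9 in MUT DMM. WT DMM stood at 19.1, 12.8 and 17.7 there, below both mutant libraries. The remaining higher alpha region, inside Pcdha12 from 37045921 to 37046140, had 25.3 and 24.9 in MUT DMM against 0, 15.0 and 9.74 in WT DMM, without overlap.

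The lower alpha regions were weak. That from 37063441 to 37063640 had 0.70 and 3.55 in MUT DMM against 0, 3.76 and 6.70 in WT DMM, and that inside Pcdha7 from 36974261 to 36974460 had 0.70 and 3.55 against 9.56, 0 and 5.48. In both the groups overlapped and the shallower mutant library rested on 1 read.

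Of the 8 lower regions named for beta genes, 4 overlapped a beta gene (Pcdhb16, Pcdhb17, Pcdhb19 and Pcdhb21). A pair lay just before a start, centred 328 bases before Pcdhb1 and 166 bases before Pcdhb13, and the others lay behind Pcdhb1 and behind Pcdhb22. Neither higher region overlapped a beta gene, but there were only 2, and the share of the beta span inside genes was not computed. The positions of CCGG sites, which decide where the assay can read, were not used here. The smallest adjusted p was at Pcdhb17 from 37486201 to 37486420 (3.08e-05, authors' deposited table), where MUT DMM stood at 0.47 and 3.55 normalized counts and WT DMM at 0, 6.02 and 7.31. Just before the start of Pcdhb13, from 37442201 to 37442500, MUT DMM stood at 8.19 and 14.2 and WT DMM at 0, 25.6 and 27.4. Both mutant libraries were below the 2 readable wild-type libraries and above the near-empty one.

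Pcdhb16 was among the beta genes where even the near-empty library had a read. At its start, from 37477701 to 37477960, MUT DMM stood at 3.51 and 0 normalized counts and WT DMM at 9.56, 6.02 and 13.4. The groups did not overlap, with means of 1.75 ± 2.48 (n = 2) and 9.66 ± 3.69 (n = 3). But the 0 of the shallower mutant library allows up to 10.7 normalized counts, above the WT DMM values of 9.56 and 6.02. The 9.56 was 1 read. The lower regions in Pcdhb19 and Pcdhb21 and those before and behind Pcdhb1 had mutant means of 2.12 to 2.71 and wild-type means of 4.85 to 7.08. The last lower region, from 37559921 to 37560280 between the beta and gamma clusters, had 3.74 and 7.11 against 9.56, 7.52 and 15.8, without overlap. There the 7.11 was 2 reads and the 9.56 was 1 read.

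Both higher beta regions were strongly marked. The region from 37386341 to 37386800, 14284 bases before the start of Pcdhb9, had 69.5 and 99.5 normalized counts in MUT DMM (297 and 28 reads). All 3 WT DMM libraries lay together at 38.2, 40.6 and 39.6 (4, 54 and 65 reads). The mean was 84.5 ± 21.2 (n = 2) against 39.5 ± 1.19 (n = 3), 2.14-fold higher. The region from 37543921 to 37544320 behind Pcdhb22 had 89.6 and 74.6 against 0, 64.7 and 48.7.

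In the gamma cluster all 5 regions were centred 280 to 1318 bases after a gene start. Starts are dense there, with 36.4% of the gamma span lying from 500 bases before to 2500 bases after a start. At Pcdhgc3, a C-type gamma gene, wild-type libraries had almost no reads. From 37806581 to 37806800, 280 bases after its start, MUT DMM had 4.91 and 14.2 normalized counts (21 and 4 reads) and WT DMM 0, 0 and 0.61 (0, 0 and 1 read). The groups did not overlap, but the wild-type level rested on 1 read in all.

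At Pcdhga11, from 37756941 to 37757240, MUT DMM stood at 22.5 and 85.3 normalized counts and WT DMM at 0, 13.5 and 20.7. The mutant libraries were themselves far apart, and the adjusted p was the largest among the members (0.0349, authors' deposited table). In Pcdhga9, from 37737881 to 37738080, MUT DMM stood at 25.7 and 17.8 and WT DMM at 0, 14.3 and 25.6, and in Pcdhga4, from 37685961 to 37686200, at 30.6 and 21.3 against 0, 21.8 and 31.7. Libraries of the groups overlapped in both genes. Without the near-empty library the Pcdhga4 region turned, to 26.0 against 26.7.

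The lower gamma region lay inside Pcdhga8 from 37726681 to 37726880. It had 5.85 and 3.55 in MUT DMM and 19.1, 8.27 and 20.7 in WT DMM, without overlap, and was 3.41-fold lower. The 3.55 was 1 read of the shallower mutant library and the 19.1 was 2 reads of the near-empty library. The separation thus rests on few reads.

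Limma called 0 of the 23 members and 0 regions in the table (1 member and 2869 regions at unadjusted p under 0.05). Without the near-empty library it called 6 members, all higher, beside 5.84% of all regions called higher and 9.88% called lower. They were the regions at the start of Pcdha3 (adjusted p = 0.0215), after Pcdha7 (0.0315), after Pcdha12 (0.00182), before Pcdhb9 (0.0120), in Pcdhga11 (0.0131) and at the start of Pcdhgc3 (0.0264). Without that library the groups did not overlap in 10 higher and 10 lower members, 8 of the lower ones beta, beside 24.1% and 52.9% of all regions. Limma was given only regions that the authors had listed for differing in these libraries, so its calls are no independent check.

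**Figure D3:**
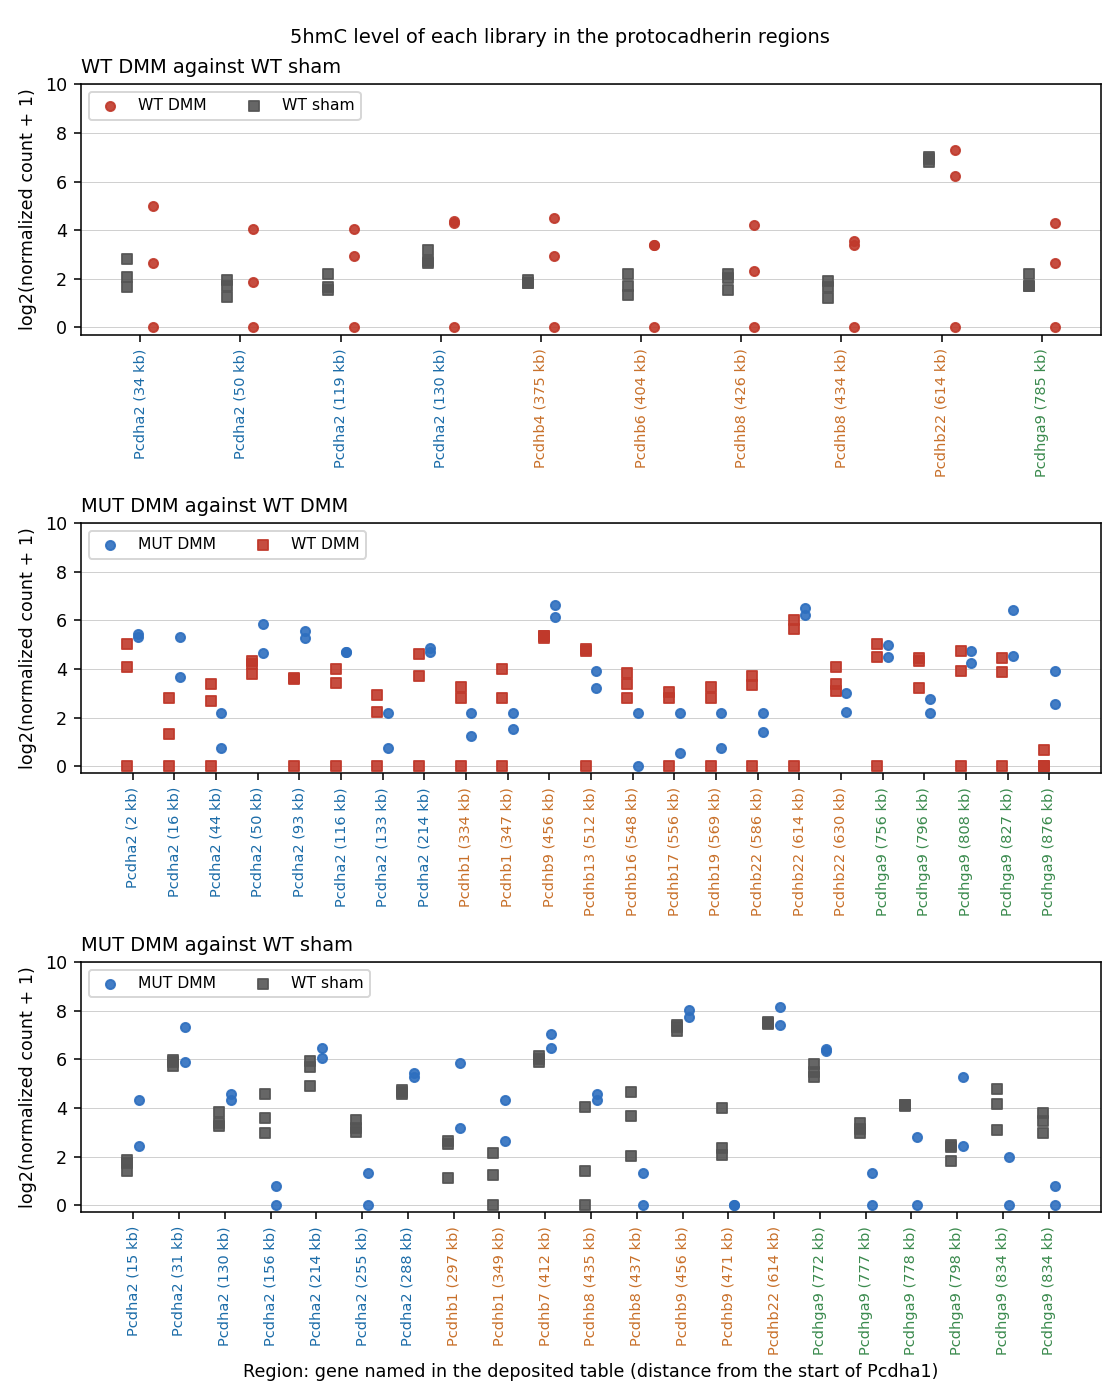
Each point is a library, with the level of a region as log2(normalized count + 1), regions in order along the chromosome and label colours as for the clusters (blue alpha, orange beta, green gamma). The WT DMM points at 0 belong in most regions to the near-empty library, and the MUT DMM points at 0 in the bottom panel mostly to the shallower mutant library.

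Against wild-type sham, 13 protocadherin regions were higher and 8 lower in mutant cartilage after DMM, where 43.2% of all regions were called higher and 56.1% lower. In the alpha cluster 5 were higher and 2 lower, in the beta cluster 6 and 2, and in the gamma cluster 2 and 4. Genotype and surgery both differ in this comparison and cannot be told apart. The higher regions had a median of 39.9 normalized counts in MUT DMM and 24.0 in sham. The lower ones had 0.735 and 11.4.

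All 8 lower members had no read in the shallower mutant library, while all 13 higher ones had 2 to 28. Since its 0 allows up to 28.3 normalized counts, above the sham mean of every lower member (7.46 to 17.0), the lower calls rest on the deeper mutant library, which had 0 to 8 reads there. No overlap was found in 10 higher and 8 lower members, beside 32.5% and 49.1% of all regions.

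Among the lower alpha regions, that from 37086461 to 37086840, 3486 bases before the start of the C-type gene Pcdhac1, had 0.74 and 0 normalized counts in MUT DMM (1 and 0 reads). Sham stood at 6.89, 23.2 and 11.1 (13, 20 and 40 reads), all above the mutant pair. The other, from 37185541 to 37185800, lay near the shared 3′ end of all 14 alpha genes. It had 1.47 and 0 in MUT DMM and 7.95, 6.95 and 10.3 in sham.

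The lower beta regions lay in Pcdhb9 and behind Pcdhb8. In Pcdhb9, from 37401301 to 37401520 and 556 bases after its start, no MUT DMM library had a read, which in the deeper one allows up to 2.21 normalized counts. Sham stood at 3.18, 15.1 and 4.16 (6, 13 and 15 reads). From 37367061 to 37367320 behind Pcdhb8, MUT DMM had 1.47 and 0 and sham 11.7, 24.3 and 3.05.

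In the gamma cluster the lower regions came in neighbouring pairs, one pair at the start of Pcdhga6 and one between the starts of Pcdhgb8 and Pcdhga12. At Pcdhga6, from 37707761 to 37708040, MUT DMM had 5.89 and 0 normalized counts and sham 15.9, 16.2 and 16.6, a close group. Its neighbour from 37707261 to 37707460 had 1.47 and 0 against 6.89, 9.26 and 7.77. Before Pcdhga12, from 37764221 to 37764460, the values were 0.74 and 0 against 6.89, 12.7 and 9.99. That from 37763721 to 37763920 had 2.95 and 0 against 7.42, 26.6 and 16.9.

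Higher gamma regions lay between Pcdhga5 and Pcdhga6 and in Pcdhga8. From 37702661 to 37702860, MUT DMM stood at 81.0 and 85.0 normalized counts and sham at 55.2, 44.0 and 37.2, so the mutant pair lay above all sham libraries. The means were 83.0 ± 2.84 (n = 2) and 45.4 ± 9.08 (n = 3), 1.83-fold higher. In Pcdhga8, from 37727961 to 37728340, MUT DMM had 4.42 and 37.8 against 4.24, 4.63 and 2.50, and only the shallower mutant library, with 4 reads, was above all sham libraries.

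In the alpha cluster the higher region with the smallest adjusted p was in Pcdha5 from 36960781 to 36961260, with 58.9 and 161 normalized counts in MUT DMM against 61.0, 59.0 and 51.3 in sham. The deeper mutant library lay within the sham range there, and the difference came from the shallower one. At Pcdhac2, from 37143761 to 37144040, MUT DMM stood at 87.6 and 66.1 and sham at 29.2, 49.8 and 60.2, without overlap. Between the alpha and beta clusters, from 37218161 to 37218400, it stood at 42.0 and 37.8 against 23.9, 25.5 and 22.8.

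Among higher beta regions, that before Pcdhb9, from 37386441 to 37386800, had 216 and 265 normalized counts in MUT DMM against 169, 145 and 159 in sham. Pcdhb7, from 37342101 to 37342320 and 508 bases after its start, had 88.4 and 132 against 69.5, 59.0 and 63.8. In both the mutant pair lay above all sham libraries. The member of highest mean over both groups, behind Pcdhb22 from 37543881 to 37544140, had 283 and 170 against 186, 178 and 175. Its shallower mutant library was below sham, so the groups overlapped, and without the deeper one the means turned to 170 against 180.

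The remaining higher regions had low sham levels. Before the start of Pcdha3, from 36944721 to 36944960, MUT DMM had 4.42 and 18.9 and sham 2.65, 2.32 and 1.66. Those on either side of Pcdhb1 had 8.10 and 56.7 against 5.30, 1.16 and 4.72 (from 37227061 to 37227660) and 5.15 and 18.9 against 0, 3.47 and 1.39 (from 37279041 to 37279320). Behind Pcdhb8, from 37365441 to 37365660, MUT DMM had 22.8 and 18.9 and sham 15.4, 0 and 1.66. The lower region behind the same gene lies close by, so neighbouring regions went in opposite directions.

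Limma called 7 of the 21 members, 1 higher and 6 lower, beside 8.19% of all regions called higher and 39% called lower. The higher one lay before Pcdhb9 (log2 difference 0.60 ± 0.19 SE, adjusted p = 0.0429). The lower ones were both alpha regions (adjusted p = 0.0124 before Pcdhac1 and 0.0164 at the shared 3′ end), that in Pcdhb9 (0.0164), one at Pcdhga6 (0.0163) and the pair before Pcdhga12 (0.0368 and 0.00716). Without any one of the sham libraries limma called 3 members, all lower. Of all 72486 regions it then called 1082 to 2108 higher and 19548 to 20505 lower. Among regions with a mean of at least 10 normalized counts it called 0 of 11 members and 0 of 32989 regions.

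**Figure D4:**
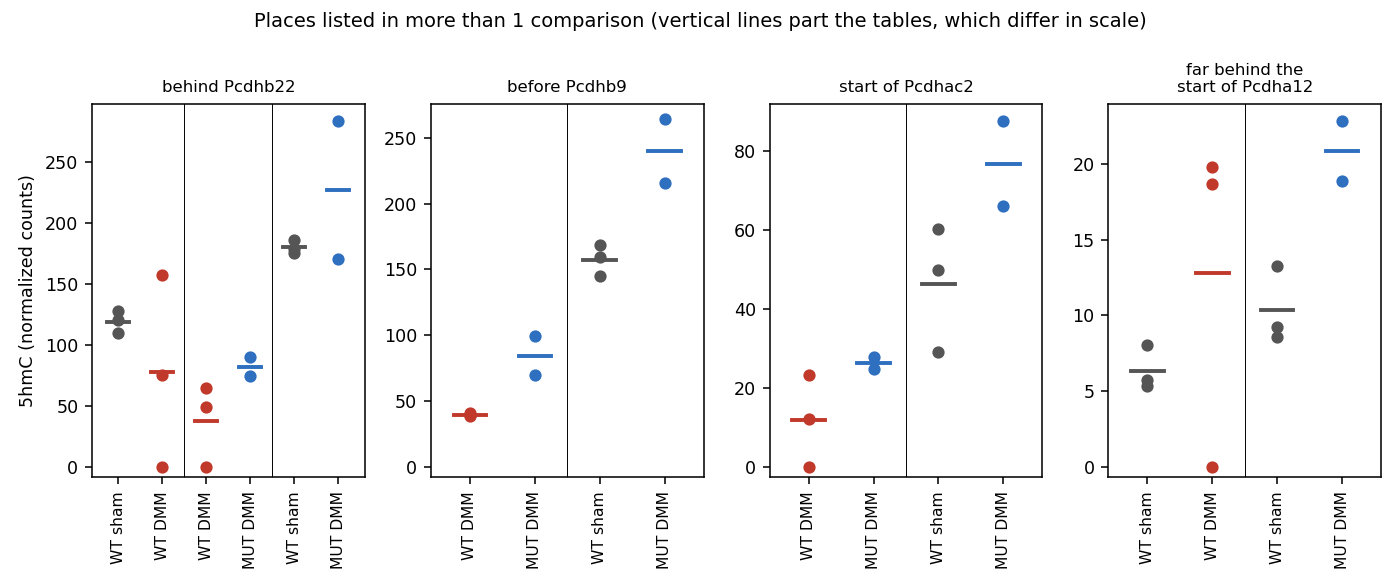
Points are libraries and horizontal lines group means, in normalized counts from 0, for 4 places listed in more than 1 table. Vertical lines part the tables, whose scales differ. Before Pcdhb9 the MUT DMM libraries lie above every wild-type library in both tables, while behind Pcdhb22 the WT DMM libraries lie on either side of sham.

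Few places were listed in more than 1 table. Members of different tables overlapped by at least 1 base in 7 pairs, and 6 pairs shared at least 50% of both regions. The tables share groups, so these are the same libraries seen again. Only the place behind Pcdhb22 was listed in all 3, lower in WT DMM than in sham and higher in MUT DMM than in either wild-type group, with the dependence on single libraries given above. The places before Pcdhb9 and at Pcdhac2 were higher in MUT DMM than in both wild-type groups. The region from 37059701 to 37059960 was listed with the same bounds in 2 tables, higher than sham in WT DMM and, with 22.8 and 18.9 against 13.3, 9.26 and 8.60 normalized counts, in MUT DMM. A pair near Pcdha7 shared only 60 bases.

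Regions inside the clusters whose nearest gene is no cluster member numbered 1, 2 and 2 in the 3 tables, in the order used above. Members outside the spans, between the clusters, numbered 1, 3 and 3. Counted by position alone, the spans held 10 higher and 0 lower regions, then 12 and 10, then 11 and 9. The lower region in WT DMM against WT sham lay outside all 3 spans and overlapped the read-through models.

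Other genes of the family and its regulators gave the following counts of regions with an authors' adjusted p under 0.05, to be read against the 93.2%, 34.2% and 43.2% of all regions called higher in the 3 comparisons. The 12 non-clustered protocadherins, such as Pcdh9 and Pcdh17, held 72 higher and 3 lower regions in WT DMM against WT sham (96.0% higher). They held 39 and 54 in MUT DMM against WT DMM (41.9%) and 95 and 35 in MUT DMM against WT sham (73.1%). Pcdh10 held 9 higher and 0 lower regions in the last comparison, and Pcdh9 21 and 5. Going the other way there, Pcdh7 held 5 and 6, Pcdh1 1 and 3, and Pcdh12 and Pcdh19 0 and 1 each. The 17 regulators, among them Ctcf, the cohesin genes Rad21 and Smc3, the chromatin protein gene Smchd1 and the methyltransferase gene Dnmt3b, held 22 and 4 (84.6%), 18 and 44 (29.0%), and 29 and 30 (49.2%) in the same order. These counts include Tet1, the gene named in the wild-type genotype label, with 3 and 0, 0 and 4, and 0 and 4. Genes beside the clusters, such as Taf7 and Hdac3, held 10 and 1 (90.9%), 8 and 12 (40.0%), and 8 and 13 (38.1%). A region near a gene says nothing of its expression.

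Markers of cell types were also near listed regions, and their shares are to be read against the same background. Chondrocyte markers had regions at 7, 8 and 10 of 11 genes in the 3 tables, with 43 higher and 1 lower (97.7% higher), 13 and 45 (22.4%), and 29 and 43 (40.3%). Sox5, Sox6 and Col11a1 held 17, 10 and 11 of the 43, while Sox9 and Acan held none in that comparison. Neural and glial markers, of cells that express many clustered protocadherins, had them at 4, 7 and 5 of 8 genes, with 13 higher and 3 lower (81.2%), 17 and 21 (44.7%), and 14 and 28 (33.3%). Endothelial markers had them at 4, 5 and 5 of 5 genes, with 17 and 4, 10 and 29, and 9 and 27. Haematopoietic markers had them at 5, 4 and 6 of 6 genes, with 9 and 2, 6 and 15, and 16 and 21. Skeletal muscle markers had them at 4, 5 and 4 of 5 genes, with 9 and 2, 8 and 7, and 9 and 9. Fibroblast and synovial lining markers had them at 4, 4 and 3 of 5 genes, with 12 and 0, 3 and 8, and 3 and 1. In bulk DNA a change in the mix of cells and a change within cells cannot be told apart.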

How the data were processed

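The submitters' processing notes name the build mm10 and the tools HISAT2 2.1.0, bcl2fastq 2.20.0, bedtools, SAMtools and Trim Galore 0.5.0, with no roles or order. The sources used here do not give the region caller, its test or the scaling factor. Per the labels' protocols, libraries had 15 PCR cycles. The authors deposited regions of 200-base windows in 20-base steps with their p-values and adjusted p-values, the normalized count of each library (3 joined per cell) and the mean signal per group.

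Fold changes were recomputed from the means with the repeated MUT DMM library counted once. Values were whole multiples of a single step per library (within 0.02) in 99.9955% to 100% of regions, and a step was read as 1 read. In regions with the same bounds in 2 tables, reads were equal in 100% (248 to 1863 regions). No count model was run, because values are normalized and pre-selected. Limma 3.58.1 (R 4.3.3, trended eBayes) was fitted per table to log2(value + 1) over all regions, with Benjamini-Hochberg adjustment, and was tested on simulated data. Libraries are named by the order in which a cell lists them, since no column ties them to the labels' replicate numbers. By the design text replicates were biological, with none tied to an animal. The limma p-values therefore measure the spread between libraries, which may be in part technical. Which spread the authors' p-values measure is not known, since their test is not given. Full values are given, for each table and cluster, for the 2 higher and 2 lower regions of smallest adjusted p, the region of highest mean and regions in all 3 tables; some other regions were named after their values were seen. Gene lists and members were chosen with earlier results of these data known. PCR reads carry no molecular identifiers, so limits from 0 reads cover counting error only. No sequences are printed.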

Additional observations from a re-analysis of the deposited data

How the results depend on the processing

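No paired analysis was possible because the columns carry no replicate numbers. An adjusted p under 0.01, the best window's p and counting all entries as deposited kept every count of higher and lower members within 1.5 times. Keeping regions with a mean of at least 10 normalized counts left 0 higher in WT DMM against WT sham, 2 lower in MUT DMM against WT DMM, 0 lower in MUT DMM against WT sham and 0 limma calls in the last, where 3 of the 11 members kept had an unadjusted p under 0.05. For the higher and lower counts at that level the share of all regions was not computed. By position the lower count in WT DMM against WT sham was 0. Leaving out 1 library at a time gave, in WT DMM against WT sham, 5 to 9 higher and 1 to 5 lower members, 0 to 7 without overlap and 0 to 7 limma calls. In MUT DMM against WT DMM it gave 11 to 13 higher, 10 to 12 lower and 13 to 20 without overlap. Without 1 WT DMM library limma called 0 to 6 members there. In MUT DMM against WT sham leaving out 1 library gave 12 to 13 higher, 8 to 9 lower and 18 to 20 without overlap. Without any 1 sham library limma called 3 members there. Of all regions in WT DMM against WT sham, 0.996% to 79.5% were then without overlap as higher and 1.96% to 4.31% as lower. These shares were 23.8% to 29.9% and 18.7% to 52.9% in MUT DMM against WT DMM. In MUT DMM against WT sham they were 33.3% to 38.8% and 49.8% to 53.9%. The share of all regions higher or lower by group means without single libraries was not computed. The check of overlap without single libraries was added after seeing the data. Of 334 values of single regions with a library left out or entries as deposited, 8 turned in direction, in 7 of 54 regions. In WT DMM against WT sham the log2 ratio without single libraries ran from -0.396 to 1.998 at the region starting at 36964281, from -0.435 to 1.684 at 36980421, from -0.364 to 1.618 at 37356201 and from -0.004 to 1.825 at 37714701, each lowest without the third-listed WT DMM library. In MUT DMM against WT DMM it ran from -1.4 to 0.118 at 37063441, which turned without the third-listed WT DMM library and, to 0.02, without the deeper MUT DMM library. At 37685961 it ran from -0.039, without the near-empty library, to 1.181. In MUT DMM against WT sham it ran from -0.081, without the deeper MUT DMM library, to 0.653 at 37543881. Limma counts with 1 MUT DMM library left are not given, since that library was then assumed to vary like the other group. The causes were not tested.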
